A study of Mus musculus with 12 samples.

Results

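The sorting nexin, VPS and ESCRT genes encode much of the machinery that sorts cargo at endosomes. The genes were taken from the deposited table of raw counts as every protein-coding gene whose symbol is Snx with a number, Vps with a number and an optional letter a to d, or begins with Chmp and a number, leaving out any that start between 23.8 and 33.8 Mb on chromosome 7, around Rinl. That rule used names and positions and no measured value. It gave 73 members among 55487 genes in the table, of which 21936 are protein-coding, and the window around Rinl removed 0 of them.

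Cargo that reaches the early endosome is either retrieved or sent on to the lysosome. Sorting nexins bind phosphoinositides on the endosome membrane through a PX domain, and those with a BAR domain bend it into tubules for retrieval, together with retromer or on their own. The ESCRT complexes take ubiquitylated receptors into intralumenal vesicles for degradation, and the tethering complexes named after yeast VPS (vacuolar protein sorting) genes bring endosomes, lysosomes and Golgi membranes together before fusion. In T cells these routes govern the surface supply of antigen receptor, cytokine receptors and adhesion molecules. Rinl, the gene deleted in the study, encodes a VPS9-domain exchange factor for the RAB5 family of early endosome GTPases.

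RNA was sequenced from CD4+ T cells sorted directly from spleen and peripheral lymph nodes of Rinl-KO and WT mice. The groups were KO effector cells (sorted as CD44hi), WT effector cells of the same sort, KO naive cells (sorted as CD44lo) and WT naive cells of that sort, with 3 libraries in each and 12 in all. The strain, age and number of mice, the way the Rinl allele was made, and whether libraries of a group came from separate mice are unstated in the sources read, so p-values measure the spread between these libraries. Each gene's level is given in FPKM, fragments scaled for gene length and library size, from the authors' table, and libraries are listed in the order of its columns.

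Total counts per library ranged from 11606251 to 24320247. The deleted gene checked the labels: Rinl stood at 15.7, 16.3 and 16.9 FPKM in KO effector libraries and 149.5, 154 and 158 FPKM in WT effector libraries, and at 11.2, 11 and 11.8 FPKM in KO naive libraries and 102, 102 and 97.8 FPKM in WT naive libraries. The summed level of 5 CD4 T cell markers was 4371 to 4631 CPM (counts scaled to a common library total) in every group, and Cd44 followed the gates, at log2 3.60 higher in KO and 3.78 higher in WT effector than naive cells. Markers of other cells were also read. Of 6 genes typical of gamma-delta T, NK and NKT cells, the sum was 139.8 to 185 CPM in KO effector, 224 to 227 CPM in WT effector, 12.2 to 14.2 CPM in KO naive and 9.78 to 13.7 CPM in WT naive libraries, with Zbtb16 at 0 in WT naive cells. The sum of 10 B cell genes was 1187 to 1440 CPM in KO effector, 979 to 1167 CPM in WT effector, 583 to 637 CPM in KO naive and 606 to 627 CPM in WT naive libraries. The sum of 10 myeloid genes was 23.4 to 35.3 CPM in KO effector, 5.28 to 28.3 CPM in WT effector, 16.8 to 30.4 CPM in KO naive and 5.31 to 17.2 CPM in WT naive libraries. The sum of 4 stromal genes was 157 to 164 CPM in KO effector, 168 to 175 CPM in WT effector, 334 to 362 CPM in KO naive and 369 to 378 CPM in WT naive libraries. The sum of 4 plasma cell genes was 79.1 to 84.1 CPM in KO effector, 74.2 to 78.6 CPM in WT effector, 46.6 to 46.8 CPM in KO naive and 41.1 to 47.4 CPM in WT naive libraries. The sum of the CD8 genes was 5.52 to 8.04 CPM in effector and 19.5 to 21.8 CPM in naive libraries of both genotypes, and that of the red cell and platelet genes 5.05 to 33.0 CPM over all libraries, with Mzb1 at 0 in both WT groups and Col3a1 at 0 in KO effector libraries. Between KO and WT, 4 genes of the gamma-delta T, NK and NKT list (Klrb1c, Klrk1, Zbtb16 and Trgc1) and 1 B cell gene (Cd22) passed, all lower in KO effector cells. No gene of the other marker lists passed in either cell type. Cd22 went against its list, as the 9 tested B cell genes had a median log2 fold change of 0.43 in that comparison. In bulk RNA a smaller share of cells of a type cannot be told apart from less RNA per cell.

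Nearly the whole machinery was present in these cells. Of the 73 members, 66 reached a mean of 1 FPKM in at least 1 group, and 68 passed the filter on low counts and were tested. The 5 untested members were Snx7, Snx22, Snx24, Snx31 and Vps37d. The highest level in the set was that of Vps28, an ESCRT-I core subunit, at a mean of 163 ± 5.08 FPKM in KO effector, 169.7 ± 9.6 FPKM in WT effector, 140.4 ± 6.26 FPKM in KO naive and 144 ± 5.2 FPKM in WT naive cells (SD, n = 3 each). Chmp4b, whose product is the main filament-forming subunit of ESCRT-III, came next at 122 ± 6.55 FPKM in KO effector, 124 ± 1.91 FPKM in WT effector, 111 ± 1.69 FPKM in KO naive and 107 ± 3.25 FPKM in WT naive cells. Exons of 26 of the 73 members overlap those of another gene in the annotation, and some of these overlaps are given below. The medians of the role groups in WT naive cells lay between 2.75 FPKM for the sorting nexins outside the BAR, FERM and RGS families and 28.8 FPKM for ESCRT-III with VPS4.

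Effector and naive cells differed in many members. In KO, 34 of the 68 tested members were higher in effector than in naive cells and 8 were lower, and in WT 30 were higher and 10 lower (edgeR quasi-likelihood test, adjusted p of at most 0.05). Across all 15905 genes tested, 58.4% passed in KO (31.6% higher, 26.8% lower) and 56.2% in WT (30.2% higher, 25.9% lower). The share of members that passed, 61.8% in KO and 58.8% in WT, was therefore near that of all genes, while their split by direction was 50% higher and 11.8% lower in KO, and 44.1% higher and 14.7% lower in WT. The median log2 fold change of the tested members was 0.13 in KO and 0.11 in WT, against 0.0085 and 0.0064 over all tested genes in the same contrasts. Effector and naive libraries did not overlap for 50 of the 68 members in KO (73.5%, against 63.9% of all tested genes). In WT this held for 44 (64.7%, against 61.5%), so the lack of overlap given for genes below was common among all genes. The role-group counts below rest on few genes each and are to be read beside the shares of all genes that passed. No test of the set or of a role group was made. Most shifts were small: in WT, 18 rises and 9 falls were under log2 0.5, 6 rises and no fall lay between 0.5 and 1, and 6 rises and 1 fall exceeded 1. Chmp4c and Snx21 had fewer than 10 counts in each naive group and passed the filter on low counts through the effector libraries, so they had to differ. Without them 32 of 66 members were higher in KO and 28 of 66 in WT, and rises of over 1 numbered 3 in KO and 4 in WT. The gamma-delta T, NK and NKT cell markers moved between the same libraries, with 4 of 6 higher and 1 lower in KO effector than naive cells and 5 higher and 1 lower in WT, as did 5 of 9 tested B cell markers in KO and 7 of 9 in WT, all higher. Of 3 tested stromal markers 1 was higher and 2 lower in each genotype, 2 of 3 tested plasma cell markers were higher in each, and the tested CD8 marker, Cd8b1, was lower by log2 -1.43 in KO and -1.70 in WT. Of 9 tested myeloid markers 2 were lower in KO, and 2 were higher and 2 lower in WT. The part of these markers in the members' differences was not tested.

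**Figure D1:**
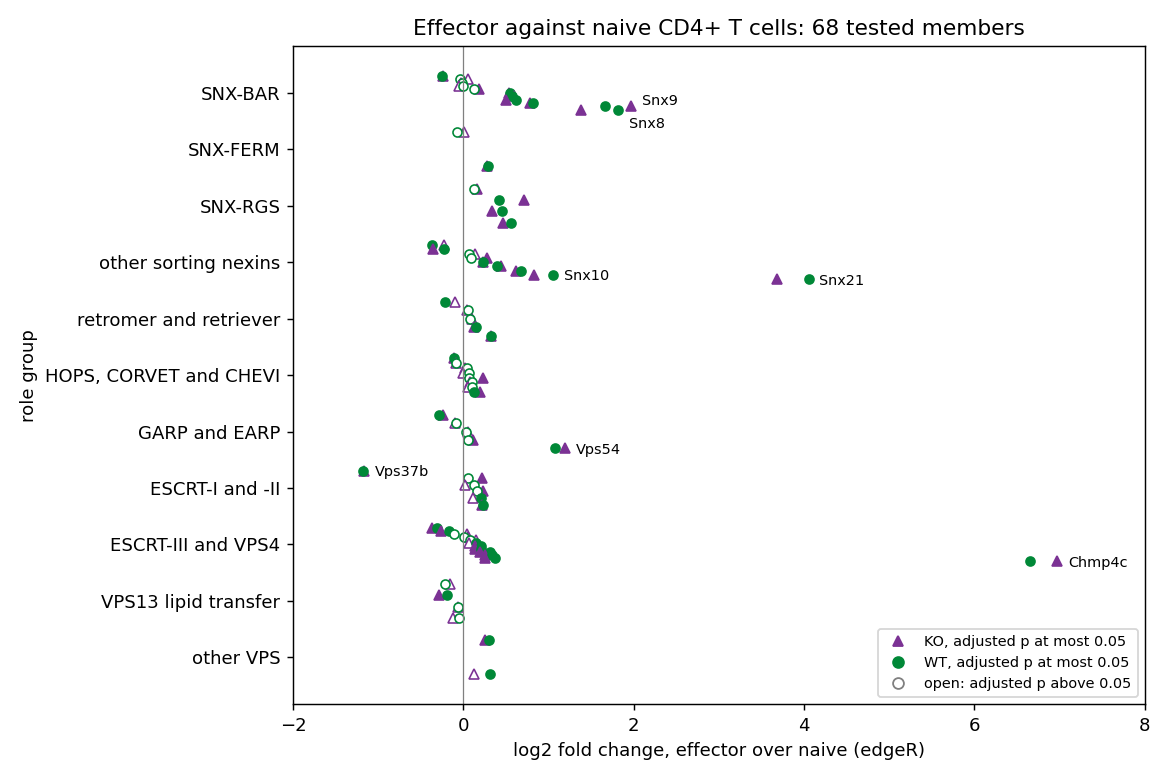
Log2 fold change of each of the 68 tested members between effector and naive cells (x axis) by role group (y axis), with triangles for KO, circles for WT, filled symbols where the adjusted p was at most 0.05 and open symbols otherwise. Most symbols lie within 0.5 of zero, and Vps37b is the 1 member that was lower by more than 1 in both genotypes.

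Since several members rose together between naive and effector cells, the bases before their starts are shown for those of the 10 largest rises in WT, among members with at least 1 FPKM in effector or naive cells, that have a single entry in the RefSeq promoter table (GRCm38.p6), which are 5 genes. Each run is the 250 bases before the RefSeq start, 5′ to 3′ on the gene's strand, at chr5:140389309-140389558 for Snx8 (minus), chr11:21238782-21239031 for Vps54 (plus), chr9:56928372-56928621 for Snx33 (minus), chr11:96777556-96777805 for Snx11 (minus) and chr13:113618565-113618814 for Snx18 (minus). Capitals mark matches, on either strand, to CACGTG (the E-box read by MITF and TFE factors), CCGGAAG (an ETS site), TGANTCA (an AP-1 site) or GGGCGG (a GC box), and no match overlapped another.
Snx8: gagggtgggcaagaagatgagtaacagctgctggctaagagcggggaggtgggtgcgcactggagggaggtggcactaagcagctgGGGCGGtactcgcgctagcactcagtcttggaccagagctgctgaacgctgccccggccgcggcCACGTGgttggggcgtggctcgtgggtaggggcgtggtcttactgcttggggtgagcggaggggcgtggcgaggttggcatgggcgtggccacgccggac
Vps54: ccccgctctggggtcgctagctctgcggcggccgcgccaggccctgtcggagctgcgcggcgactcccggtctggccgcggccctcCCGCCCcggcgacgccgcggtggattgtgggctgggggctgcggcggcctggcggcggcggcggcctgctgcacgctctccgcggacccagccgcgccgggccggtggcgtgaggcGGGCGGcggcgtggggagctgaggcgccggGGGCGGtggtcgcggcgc
Snx33: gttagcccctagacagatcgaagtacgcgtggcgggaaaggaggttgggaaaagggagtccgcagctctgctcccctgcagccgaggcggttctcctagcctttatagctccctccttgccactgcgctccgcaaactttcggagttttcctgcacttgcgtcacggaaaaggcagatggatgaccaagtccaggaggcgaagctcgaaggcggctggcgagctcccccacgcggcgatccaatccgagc
Snx11: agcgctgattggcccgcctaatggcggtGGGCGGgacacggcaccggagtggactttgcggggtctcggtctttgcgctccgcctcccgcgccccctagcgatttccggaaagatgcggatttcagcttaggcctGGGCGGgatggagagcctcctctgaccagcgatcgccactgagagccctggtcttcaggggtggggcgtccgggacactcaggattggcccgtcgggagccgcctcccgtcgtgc
Snx18: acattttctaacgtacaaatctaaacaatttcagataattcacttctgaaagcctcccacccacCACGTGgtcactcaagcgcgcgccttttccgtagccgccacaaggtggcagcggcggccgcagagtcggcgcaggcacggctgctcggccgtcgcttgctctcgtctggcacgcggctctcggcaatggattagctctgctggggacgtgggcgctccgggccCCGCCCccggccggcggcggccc
The runs of Snx8 and Snx18 each held 1 CACGTG and 1 GC box, those of Vps54 and Snx11 held 3 and 2 GC boxes, and that of Snx33 held none of the motifs. The RefSeq start and the start in the deposited table were 249 bases apart for Vps54, 46 for Snx8, 4 for Snx11 and 0 for Snx33 and Snx18. Of the 73 members, 49 had an entry in the table, and the first listed start was used. CACGTG was found before 6 of these 49 (12.2%) and 6.05% of 27025 genes, CCGGAAG before 9 (18.4%) and 7.05%, TGANTCA before 0 and 6.87%, and GGGCGG before 32 (65.3%) and 32.9%. The 27025 are all genes with an entry, unfiltered by level or gene type. The members are protein-coding and mostly expressed here, so the 2 sets are unlike and the gaps were not tested. Split by the WT comparison, CACGTG was found before 2 of 19 members that were higher in effector cells, 1 of 7 that were lower and 3 of 20 that were tested and did not pass. In the same order, CCGGAAG was found before 2 of 19, 1 of 7 and 6 of 20, and GGGCGG before 12 of 19, 5 of 7 and 12 of 20. A match is a description of letters in a window and says nothing of binding.

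The sorting nexins with a BAR domain held the 2 largest rises among members of at least 1 FPKM, Snx9 and Snx8. Of 11 tested members of this group, 7 were higher and 1 lower in KO effector than naive cells, and 6 were higher and 1 lower in WT. Snx9, whose product joins dynamin and actin regulators at endocytic sites through its SH3 domain, stood at 4.67, 5.39 and 4.13 FPKM in KO effector libraries and 5.01, 3.75 and 3.93 FPKM in WT effector libraries. Naive Snx9 levels were 1.23, 1.31 and 1.1 FPKM in KO and 1.58, 1.09 and 1.34 FPKM in WT libraries. All effector libraries lay above all naive libraries in both genotypes, with a log2 fold change of 1.97 ± 0.14 in KO (± SE, adjusted p = 1.8e-11) and 1.66 ± 0.15 in WT (adjusted p = 1.1e-09, edgeR quasi-likelihood test). Its SH3 relatives moved the same way at higher levels. Snx33 was at 11.1, 11.9 and 10.7 FPKM in KO effector, 11, 10.2 and 11.1 FPKM in WT effector, 6.4, 6.73 and 6.54 FPKM in KO naive and 6.09, 5.73 and 6.61 FPKM in WT naive libraries, a log2 fold change of 0.78 ± 0.062 in KO and 0.81 ± 0.065 in WT. Snx18 was at 11.2, 11.7 and 11.5 FPKM in KO effector, 11.3, 11 and 11.4 FPKM in WT effector, 8.21, 7.79 and 8.41 FPKM in KO naive and 6.9, 7.18 and 8.1 FPKM in WT naive libraries, a log2 fold change of 0.50 ± 0.059 in KO and 0.61 ± 0.062 in WT. Neither gene's effector libraries overlapped its naive ones. Within the summed FPKM of Snx9, Snx18 and Snx33, the share of Snx9 was 17.2% ± 1.44 in KO effector, 16.1% ± 1.96 in WT effector, 7.63% ± 0.710 in KO naive and 8.98% ± 1.63 in WT naive cells (mean and SD of 3 libraries). These shares within sets of relatives, here and below, were chosen after the values were seen and are given as descriptions with no test.

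Snx8, a BAR-domain nexin of the route from endosomes to the Golgi, was at 1.32, 1.59 and 1.45 FPKM in KO effector libraries and 1.56, 1.88 and 1.66 FPKM in WT effector libraries. Naive Snx8 levels were 0.620, 0.626 and 0.415 FPKM in KO and 0.519, 0.433 and 0.488 FPKM in WT libraries. Its log2 fold change was 1.38 ± 0.19 in KO (adjusted p = 1.1e-06) and 1.81 ± 0.20 in WT (adjusted p = 5.3e-08, edgeR), with no overlap between effector and naive libraries. Its level stayed among the lowest of the tested members, at 579 counts over all 12 libraries.

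The pairs that act with retromer or carry cargo on their own did not move as units. Snx1 and Snx2 are close relatives that pair with Snx5, Snx6 or Snx32. Snx2 was at 58.2, 57.8 and 56.3 FPKM in KO effector, 59.4, 55.1 and 58.5 FPKM in WT effector, 37.9, 37.6 and 38.8 FPKM in KO naive and 36.8, 40.1 and 39.5 FPKM in WT naive libraries, a log2 fold change of 0.59 ± 0.046 in KO (adjusted p = 6.9e-11) and 0.57 ± 0.047 in WT (adjusted p = 2.2e-10, edgeR), with all effector libraries above all naive ones. Snx1 was at 45.3, 46.6 and 50.4 FPKM in KO effector, 44, 47.4 and 46.7 FPKM in WT effector, 46.8, 43.8 and 46.4 FPKM in KO naive and 44.7, 47.3 and 49.8 FPKM in WT naive libraries, with overlapping groups and fold changes of 0.053 ± 0.052 in KO (95% interval -0.054 to 0.16) and -0.037 ± 0.053 in WT (-0.15 to 0.072). Of the summed FPKM of Snx1 and Snx2, Snx2 made up 54.8% ± 1.81 in KO effector, 55.6% ± 1.85 in WT effector, 45.5% ± 0.686 in KO naive and 45.1% ± 0.811 in WT naive cells (mean and SD of 3 libraries). Snx2 was thus the smaller partner by level in naive cells and the larger in effector cells of both genotypes.

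Of the Snx5, Snx6 and Snx32 side, Snx5 had the highest level of the BAR group, at 59, 54.9 and 60.4 FPKM in KO effector libraries and 58.6, 61.7 and 61.8 FPKM in WT effector libraries. Naive Snx5 levels were 57.7, 60.1 and 59.6 FPKM in KO and 60.5, 62.8 and 60.9 FPKM in WT libraries. Its fold change was -0.026 ± 0.045 in KO (95% interval -0.12 to 0.067) and -0.019 ± 0.045 in WT (-0.11 to 0.075). Snx6 had intervals of -0.16 to 0.060 in KO and -0.11 to 0.11 in WT, and its share of Snx5 plus Snx6 was 34% ± 0.640 in KO effector, 33.7% ± 1.76 in WT effector, 34.4% ± 0.652 in KO naive and 33.4% ± 0.863 in WT naive cells (mean and SD of 3 libraries). Neither gene passed. Snx32 was higher, at 10.4, 11.8 and 10.7 FPKM in KO effector, 11.2, 10.3 and 12.2 FPKM in WT effector, 8.38, 6.75 and 7.59 FPKM in KO naive and 7.97, 7.7 and 7.32 FPKM in WT naive libraries, with a log2 fold change of 0.54 ± 0.090 in KO (adjusted p = 1.6e-05) and 0.55 ± 0.093 in WT (adjusted p = 2.1e-05, edgeR) and no overlap. Snx32 shares 468 of its 3554 exon bases with Cfl1 on the opposite strand, which had 174625 counts and a log2 fold change of -0.025 in KO and in WT, and the strand setting used in counting was not stated in the sources. Snx4, which works in recycling and autophagy, was the 1 falling member of the group, at 26.1, 27.3 and 27.6 FPKM in KO effector libraries and 27.5, 29.7 and 28.3 FPKM in WT effector libraries. Naive Snx4 levels were 31.7, 32.4 and 31.6 FPKM in KO and 33.5, 34 and 33.7 FPKM in WT libraries. Its log2 fold change was -0.24 ± 0.045 in KO (adjusted p = 6.3e-05) and -0.25 ± 0.046 in WT (adjusted p = 6.7e-05, edgeR), with no overlap between effector and naive libraries. Snx30, a partner of Snx4, was called in KO with a log2 fold change of 0.18 ± 0.066 and not in WT, where it was 0.13 ± 0.069. Snx30 shares 240 of 7795 exon bases with Gm12543, a pseudogene on the same strand with 2827 counts. Gm12543 was also higher in effector cells, by log2 0.48 in KO and 0.40 in WT. The part of this overlap in the Snx30 value was not tested.

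**Figure D2:**
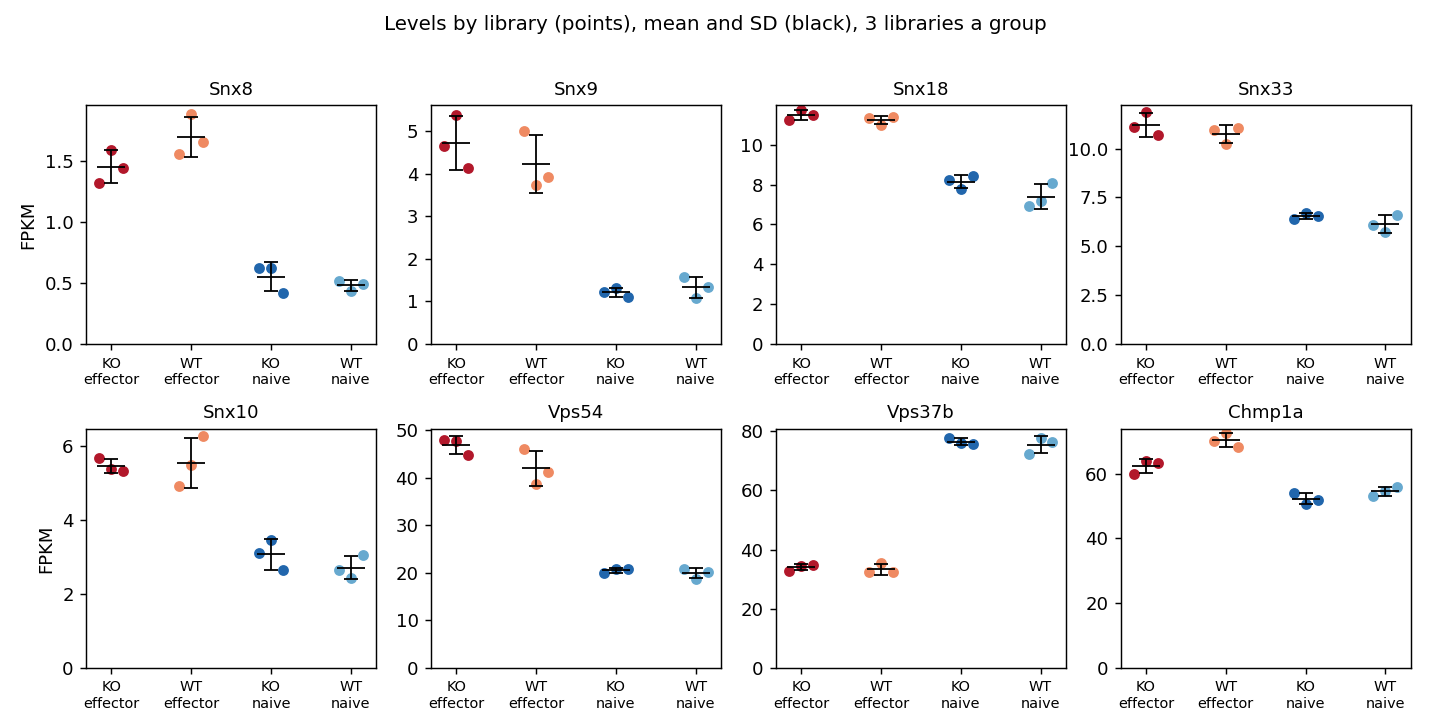
FPKM (y axis, from 0) of 8 members in each library (points) by group (x axis), with the mean and SD of 3 libraries in black. Snx8, Snx9, Snx18, Snx33, Snx10 and Vps54 lie higher in both effector groups, Vps37b lies at 32.2 to 35.5 FPKM in effector and 72.1 to 77.8 FPKM in naive libraries, and Chmp1a is lower in KO effector than in WT effector libraries.

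Most of the sorting nexins with an RGS-like region and a PXA domain rose. In KO 4 of 4 were higher in effector than naive cells (31.6% of all tested genes were), and in WT 3 of 4 were (30.2%). With 4 genes, these counts are not read as a trait of the group. Snx25 was at 11.7, 12.2 and 12.8 FPKM in KO effector libraries and 12.8, 12.4 and 12.2 FPKM in WT effector libraries. Naive Snx25 levels were 9.1, 8.68 and 8.83 FPKM in KO and 8.45, 8.59 and 8.24 FPKM in WT libraries. All its effector libraries exceeded its naive ones, and the log2 fold change was 0.46 ± 0.057 in KO (adjusted p = 2.2e-07) and 0.56 ± 0.059 in WT (adjusted p = 1.7e-08, edgeR). Snx14, which sits at the endoplasmic reticulum and lipid droplets and had the highest level of the 4, was at 20.4, 16.4 and 17.9 FPKM in KO effector libraries and 19.8, 20.8 and 19 FPKM in WT effector libraries. Naive Snx14 levels were 14.2, 14.8 and 14.3 FPKM in KO and 15, 14 and 14.4 FPKM in WT libraries. This was a log2 fold change of 0.33 ± 0.065 in KO and 0.45 ± 0.067 in WT, again without overlap. Snx13 rose by a log2 fold change of 0.71 ± 0.074 in KO and 0.42 ± 0.077 in WT, and this difference between genotypes, 0.29 ± 0.11 (KO minus WT in effector less that in naive cells), had an unadjusted p under 0.05 and adjusted p = 0.38. Snx19 had log2 fold changes of 0.16 ± 0.055 in KO, which passed, and 0.13 ± 0.056 in WT, which did not (adjusted p = 0.062). Of the FERM-domain group, Snx17, which recognises NPxY motifs in integrins and other receptors and hands them to retriever, was at 55.7, 56.9 and 58.7 FPKM in KO effector libraries and 56, 56.1 and 54.7 FPKM in WT effector libraries. Naive Snx17 levels were 48, 46.5 and 47.1 FPKM in KO and 45, 46.4 and 44.9 FPKM in WT libraries. It was higher in effector cells by a log2 fold change of 0.27 ± 0.043 in KO and 0.29 ± 0.044 in WT, while Snx27, the PDZ-domain adaptor of retromer, had 95% intervals of -0.12 to 0.12 in KO and -0.20 to 0.045 in WT.

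Among the remaining sorting nexins, 6 of 9 tested were higher and 1 lower in KO effector than naive cells, and 5 were higher and 2 lower in WT. Snx10, a nexin needed for osteoclast function in mice and humans, was at 5.67, 5.37 and 5.32 FPKM in KO effector libraries and 4.92, 5.48 and 6.26 FPKM in WT effector libraries. Naive Snx10 levels were 3.11, 3.47 and 2.64 FPKM in KO and 2.65, 2.44 and 3.05 FPKM in WT libraries. The fold change on the log2 scale was 0.82 ± 0.11 in KO (adjusted p = 9.9e-07) and 1.05 ± 0.12 in WT (adjusted p = 7.1e-08, edgeR), with no overlap. Its closest relative Snx11 was at 18.4, 18.5 and 18 FPKM in KO effector libraries and 18, 17.9 and 18.3 FPKM in WT effector libraries. Naive Snx11 levels were 11.5, 12.3 and 11.8 FPKM in KO and 11.8, 11.5 and 10.4 FPKM in WT libraries. The log2 fold change of Snx11 was 0.62 ± 0.059 in KO and 0.67 ± 0.061 in WT, so both relatives rose. Snx3, the adaptor that brings Wntless to retromer and the sorting nexin with the highest mean FPKM in every group but WT naive, where Snx5 was higher, was at 66.1, 78.9 and 76.8 FPKM in KO effector libraries and 68.1, 73.3 and 67.8 FPKM in WT effector libraries. Naive Snx3 levels were 61.1, 63.8 and 63.9 FPKM in KO and 57.2, 61.8 and 59 FPKM in WT libraries. Its effector libraries all lay above its naive ones, with log2 fold changes of 0.23 ± 0.057 in KO and 0.23 ± 0.059 in WT. Snx20, which binds the selectin ligand PSGL-1, was higher in effector cells by 0.44 ± 0.067 in KO and 0.39 ± 0.068 in WT on the log2 scale. Snx12 had log2 fold changes of 0.28 ± 0.062 in KO, which passed, and 0.093 ± 0.063 in WT, which did not.

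Snx15 and Snx29 were lower. Snx15 was at 11.4, 13 and 12.6 FPKM in KO effector, 13.2, 13.2 and 12.5 FPKM in WT effector, 15.8, 16.1 and 15.6 FPKM in KO naive and 13.9, 16.3 and 15.2 FPKM in WT naive libraries, with a log2 fold change of -0.36 ± 0.075 in KO (adjusted p = 2.4e-04) and -0.23 ± 0.077 in WT (adjusted p = 0.015, edgeR) and no overlap. The WT call was lost without the second WT naive library (adjusted p = 0.10) or the third WT effector library (adjusted p = 0.060). Snx29 was at 2.0, 2.0 and 2.51 FPKM in KO effector libraries and 2.23, 1.91 and 2.26 FPKM in WT effector libraries. Naive Snx29 levels were 2.45, 2.54 and 2.54 FPKM in KO and 2.91, 2.75 and 2.57 FPKM in WT libraries. Its naive and effector libraries overlapped in KO, where the log2 fold change of -0.23 ± 0.11 did not pass (adjusted p = 0.080, edgeR), and were apart in WT, where it was -0.37 ± 0.11 (adjusted p = 0.0077). Without the third KO effector library the KO value was -0.33 and passed (adjusted p = 0.019). Snx16 had 95% intervals of -0.21 to 0.47 in KO and -0.29 to 0.43 in WT, at mean levels of 1.39 ± 0.214 FPKM in KO effector, 1.26 ± 0.147 FPKM in WT effector, 1.25 ± 0.0593 FPKM in KO naive and 1.22 ± 0.0700 FPKM in WT naive cells.

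At the lowest levels, Chmp4c and Snx21 had far more reads in effector than in naive cells, the group through which they entered the test. Chmp4c, an ESCRT-III subunit of the abscission checkpoint at the end of cell division, had 141 counts in the 3 KO effector libraries and 1 in the 3 KO naive libraries, and 129 counts in WT effector and 1 in WT naive libraries. Scaled by library size, the ratio was 187 in KO (exact 95% interval 33.0 to 7432) and 138 in WT (24.3 to 5482), where the intervals cover counting error only. In every effector library its level was under 1 FPKM, between 0.239 and 0.622. Snx21 had 62 counts in KO effector and 6 in KO naive libraries, a ratio of 13.7 (5.95 to 38.7), and 52 counts in WT effector and 3 in WT naive libraries, a ratio of 18.5 (5.99 to 92.6). Among the untested members, Snx22 had 22 counts in KO effector and 3 in KO naive libraries, and 18 in WT effector and 2 in WT naive libraries. Snx22 shares 825 of 2891 exon bases with the abundant Ppib on the opposite strand, and Chmp4c shares 330 of 10087 with Snx16. Vps37d had 12 counts in KO effector, 6 in WT effector, 0 in KO naive and 1 in WT naive libraries, and Snx7, Snx24 and Snx31 had 1, 5 and 10 counts over all 12 libraries.

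The retromer core changed little. Retromer is the trimer of Vps35, Vps29 and either Vps26a or Vps26b, and Vps26c takes the corresponding place in retriever. In KO 2 of the 5 genes were higher in effector than naive cells, and in WT 2 were higher and 1 lower. Vps35, the scaffold, was at 27.4, 24.9 and 26.5 FPKM in KO effector libraries and 26.1, 24 and 23.5 FPKM in WT effector libraries. Naive Vps35 levels were 28.1, 28.5 and 27.7 FPKM in KO and 27.2, 27.9 and 30.2 FPKM in WT libraries. Its log2 fold change was -0.097 ± 0.051 in KO, which did not pass (adjusted p = 0.11), and -0.21 ± 0.053 in WT (adjusted p = 0.0014, edgeR). Without the first KO effector library the KO value was -0.13 and passed narrowly (adjusted p = 0.0496). Vps26b, the highest of the group, was at 33.6, 34.5 and 35 FPKM in KO effector libraries and 35, 34.1 and 33.8 FPKM in WT effector libraries. Naive Vps26b levels were 31.4, 31.4 and 31.4 FPKM in KO and 31.2, 31 and 30.7 FPKM in WT libraries. The groups did not overlap, but the log2 fold change was only 0.13 ± 0.041 in KO and 0.14 ± 0.042 in WT, and with no filter on low counts the KO call was lost (adjusted p = 0.064). Vps29 was higher by 0.33 ± 0.064 in KO and 0.33 ± 0.067 in WT on the log2 scale, and Vps26a and Vps26c did not pass, with 95% intervals of -0.075 to 0.15 and 0.0035 to 0.20 in KO and -0.064 to 0.17 and -0.030 to 0.17 in WT. Of the summed FPKM of Vps26a and Vps26b, Vps26b made up 66.5% ± 0.438 in KO effector, 66.7% ± 1.11 in WT effector, 65.1% ± 0.879 in KO naive and 65.2% ± 1.3 in WT naive cells (mean and SD of 3 libraries), a nearly constant share. Of the 4 retromer genes, then, Vps29 showed the widest difference, in a direction that Vps35 did not share. Vps29 shares 340 of 6148 exon bases with Fam216a on the opposite strand, which had 2034 counts. Fam216a was also higher in effector cells, by log2 0.64 in KO and 0.45 in WT, and the part of this overlap in the Vps29 value was not tested.

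GARP and EARP differed in the subunit that defines each. Of the 5 genes, 2 were higher and 1 lower in KO effector than naive cells, and 1 was higher and 1 lower in WT. GARP and EARP share Vps51, Vps52 and Vps53, and differ in the fourth subunit, which is Vps54 in GARP, the tether at the trans-Golgi network, and Vps50 in EARP, the tether of recycling endosomes. Vps54 was at 48, 47.8 and 44.8 FPKM in KO effector libraries and 46.1, 38.8 and 41.2 FPKM in WT effector libraries. Naive Vps54 levels were 19.9, 20.9 and 20.8 FPKM in KO and 20.8, 18.7 and 20.1 FPKM in WT libraries. All effector libraries lay above all naive libraries, and the log2 fold change was 1.20 ± 0.056 in KO (adjusted p = 4.9e-15) and 1.08 ± 0.057 in WT (adjusted p = 6.2e-14, edgeR). Vps50 went the other way at a lower level, at 3.99, 3.49 and 3.7 FPKM in KO effector libraries and 3.62, 3.17 and 3.73 FPKM in WT effector libraries. Naive Vps50 levels were 4.34, 4.33 and 4.58 FPKM in KO and 4.14, 4.55 and 4.18 FPKM in WT libraries. Its log2 fold change was -0.24 ± 0.076 in KO (adjusted p = 0.0082) and -0.29 ± 0.079 in WT (adjusted p = 0.0033, edgeR), without overlap, and the KO call was lost without the second KO effector library (-0.19, adjusted p = 0.061). The shared subunits moved little, with log2 fold changes of -0.093, 0.11 and 0.060 in KO and -0.087, 0.056 and 0.032 in WT for Vps51, Vps52 and Vps53, of which Vps52 in KO passed (adjusted p = 0.047). Vps52 shares 156 of 3967 exon bases with Rps18 on the opposite strand, which had 147190 counts and log2 fold changes of -0.91 in KO and -0.82 in WT. Of the summed FPKM of the subunits that define each complex, Vps54 made up 92.6% ± 0.492 in KO effector, 92.3% ± 0.530 in WT effector, 82.3% ± 0.451 in KO naive and 82.2% ± 1.55 in WT naive cells (mean and SD of 3 libraries).

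**Figure D3:**
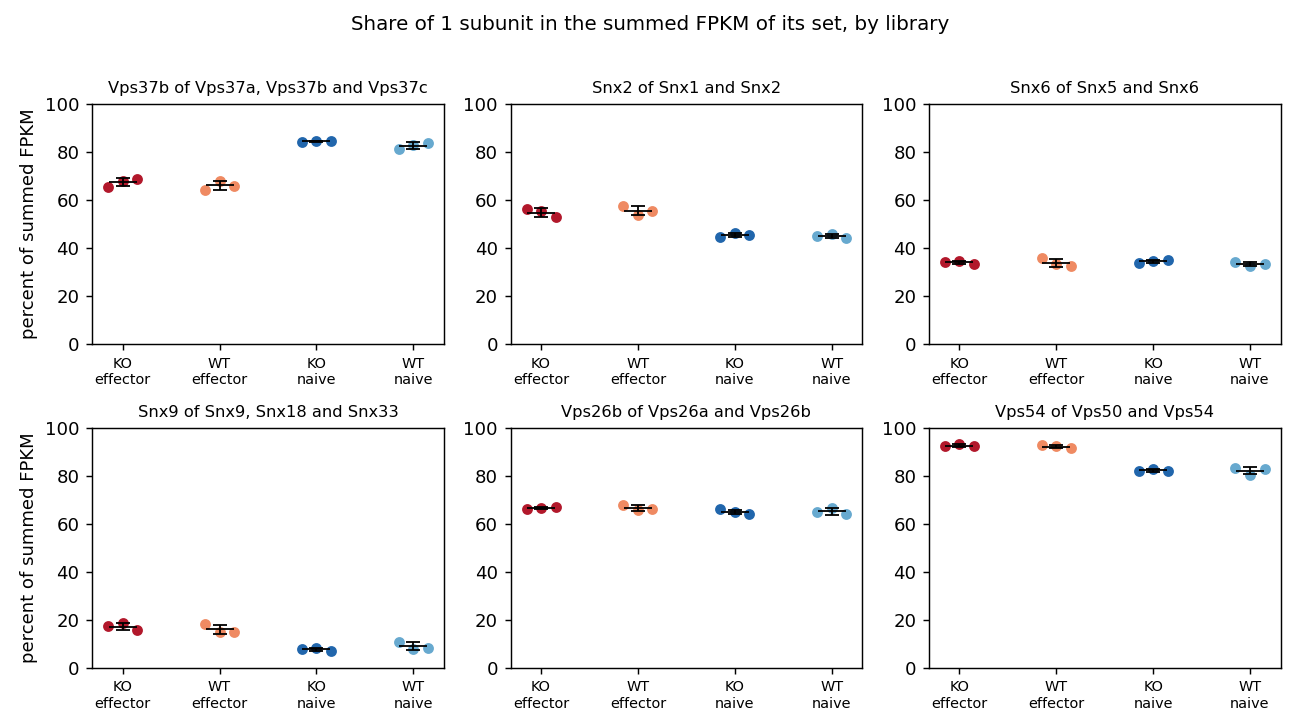
Share of 1 subunit in the summed FPKM of its set (y axis, percent) in each library (points) by group (x axis), with the mean and SD of 3 libraries in black. Vps37b, Snx2, Snx9 and Vps54 sit at different shares in effector and naive libraries, while Snx6 and Vps26b sit at nearly the same share in all 4 groups.

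HOPS and CORVET, the tethers of late and early endosomes, share the core of Vps11, Vps16, Vps18 and Vps33a, and Vps33b belongs to the related CHEVI complex. Of these 8 genes, 2 were higher and 1 lower in KO effector than naive cells, and 1 was higher and 1 lower in WT. Vps16, the highest of them, was at 49.7, 48.5 and 51.3 FPKM in KO effector libraries and 49.9, 50.9 and 49.8 FPKM in WT effector libraries. Naive Vps16 levels were 55.6, 52.4 and 53.5 FPKM in KO and 54.7, 55.4 and 52.4 FPKM in WT libraries. Its libraries did not overlap, yet the log2 fold change was -0.11 ± 0.043 in KO (adjusted p = 0.030) and -0.11 ± 0.043 in WT (adjusted p = 0.032, edgeR), and the call was lost in 3 of 18 alternative analyses in KO and 5 of 18 in WT. In KO these left out the first KO naive, the first KO effector or the second KO effector library (adjusted p = 0.059 to 0.11). In WT they left out the first or the second WT naive, or the first or the third WT effector library (adjusted p = 0.071 to 0.11), or required a mean of at least 5 CPM (adjusted p = 0.053). Vps39, a subunit of HOPS, was higher by 0.19 ± 0.049 in KO and 0.12 ± 0.050 in WT on the log2 scale, and Vps18 was called in KO at 0.23 ± 0.080 and not in WT at 0.067 ± 0.081. Vps8, a subunit of CORVET, Vps11, Vps33a, Vps33b and Vps41 did not pass in either genotype.

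ESCRT-I carried the largest fall of the set. Of 6 tested ESCRT-I and ESCRT-II genes, 3 were higher and 1 lower in KO effector than naive cells, and 2 were higher and 1 lower in WT. Vps37b is 1 of 4 alternative subunits that complete ESCRT-I beside Tsg101 and Vps28, and lies on chromosome 5 from 124004641 to 124032270 on the minus strand (GRCm38 coordinates of the deposited table). It was at 32.9, 34.6 and 34.7 FPKM in KO effector libraries and 32.3, 35.5 and 32.2 FPKM in WT effector libraries. Naive Vps37b levels were 77.8, 76 and 75.6 FPKM in KO and 72.1, 77.7 and 76.4 FPKM in WT libraries. All effector libraries lay far below all naive libraries in each genotype, with a log2 fold change of -1.17 ± 0.048 in KO (adjusted p = 4.4e-16) and -1.18 ± 0.048 in WT (adjusted p = 4.9e-16, edgeR). Its alternatives were not lower: Vps37a had log2 fold changes of 0.22 ± 0.072 in KO and 0.049 ± 0.073 in WT, and Vps37c 0.23 ± 0.081 in KO and 0.16 ± 0.082 in WT, of which the KO values passed. Of the summed FPKM of Vps37a, Vps37b and Vps37c, Vps37b made up 67.4% ± 1.7 in KO effector, 66.1% ± 1.83 in WT effector, 84.5% ± 0.338 in KO naive and 82.7% ± 1.42 in WT naive cells (mean and SD of 3 libraries). It thus remained the most abundant of the 3 in effector cells. Vps37b shares 918 of its 2789 exon bases with Hip1r on the opposite strand, which was higher in effector cells by a log2 fold change of 2.97 in KO and 3.13 in WT, the direction opposite to that of Vps37b.

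The other subunits of ESCRT-I and ESCRT-II were steadier. Vps28 was at 158, 168 and 164 FPKM in KO effector libraries and 169.6, 179 and 160.2 FPKM in WT effector libraries. Naive Vps28 levels were 146, 142 and 134 FPKM in KO and 142, 149.7 and 140.0 FPKM in WT libraries. Its effector libraries all lay above its naive ones, with a log2 fold change of 0.22 ± 0.049 in KO and 0.24 ± 0.050 in WT. Vps36, of ESCRT-II, was called in WT at 0.21 ± 0.054 and not in KO at 0.11 ± 0.053, and Vps25 did not pass in either genotype, at 0.025 ± 0.055 in KO and 0.12 ± 0.056 in WT.

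In ESCRT-III with the VPS4 ATPases that disassemble it, 6 of 12 genes were higher and 2 lower in KO effector than naive cells, and 7 were higher and 2 lower in WT. Chmp4b was at 116, 121 and 129 FPKM in KO effector libraries and 122, 123 and 126 FPKM in WT effector libraries. Naive Chmp4b levels were 112, 109 and 112 FPKM in KO and 106, 111 and 105 FPKM in WT libraries. All effector libraries were above all naive ones, at log2 fold changes of 0.14 ± 0.045 in KO and 0.20 ± 0.045 in WT. The KO call was lost without the second KO naive library (adjusted p = 0.073) or the third KO effector library (adjusted p = 0.078). Chmp1a rose by 0.26 ± 0.045 in KO and 0.37 ± 0.045 in WT on the log2 scale, and its relative Chmp1b by 0.25 ± 0.051 in KO and 0.33 ± 0.052 in WT. Chmp2a and Chmp6 also passed in both genotypes, with log2 fold changes of 0.14 and 0.20 in KO and 0.21 and 0.31 in WT, and Chmp7 passed in WT alone at 0.15 ± 0.055, against 0.071 ± 0.054 in KO. Chmp3 fell, at 25.5, 22.9 and 24.5 FPKM in KO effector libraries and 24.5, 24.6 and 25 FPKM in WT effector libraries. Naive Chmp3 levels were 32.4, 32 and 29.7 FPKM in KO and 30.9, 30.5 and 30.0 FPKM in WT libraries. In log2 terms it changed by -0.37 ± 0.050 in KO (adjusted p = 7.9e-07) and -0.31 ± 0.051 in WT (adjusted p = 1.6e-05, edgeR), without overlap. Vps4a was lower too, at 26, 24.7 and 26.4 FPKM in KO effector, 25.7, 26.2 and 27.4 FPKM in WT effector, 31.2, 31.1 and 30.0 FPKM in KO naive and 29.3, 29.9 and 30.2 FPKM in WT naive libraries, or -0.26 ± 0.049 in KO and -0.17 ± 0.050 in WT on the log2 scale, without overlap. Its paralogue Vps4b had 95% intervals of -0.042 to 0.15 in KO and -0.091 to 0.11 in WT, and Chmp2b and Chmp5 did not pass in either genotype.

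Of the VPS13 bridge proteins, which pass lipids between membranes, Vps13d was lower, at 15.3, 14.6 and 14.4 FPKM in KO effector libraries and 15.2, 13.8 and 14.9 FPKM in WT effector libraries. Naive Vps13d levels were 17.6, 18.1 and 18.2 FPKM in KO and 18.4, 16.5 and 15.1 FPKM in WT libraries. Libraries overlapped in WT, where the log2 fold change was -0.19 ± 0.057 (adjusted p = 0.0066, edgeR), and did not in KO, where it was -0.28 ± 0.057 (adjusted p = 1.6e-04). Without the first WT naive library the WT value was -0.11 and did not pass (adjusted p = 0.081). Vps13a, Vps13b and Vps13c had negative log2 fold changes that did not pass, the widest being -0.22 ± 0.098 for Vps13c in WT. Vps72 is named for a yeast sorting phenotype, but its product is a histone chaperone of chromatin remodelling complexes. It was at 31.4, 35.2 and 34.3 FPKM in KO effector, 37.3, 34.9 and 36.2 FPKM in WT effector, 30.5, 26.5 and 27.5 FPKM in KO naive and 28.8, 30.7 and 28.5 FPKM in WT naive libraries, all effector libraries above all naive ones, with log2 fold changes of 0.26 ± 0.062 in KO and 0.30 ± 0.064 in WT. Vps45, the SM protein of early endosome fusion, had a log2 fold change of 0.13 ± 0.087 in KO and 0.32 ± 0.089 in WT, of which the WT value passed.

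The genotypes gave much the same list. Of 42 members called in KO and 40 in WT, 35 were called in both, which is 83.3% of the KO list and 87.5% of the WT list, and all 35 had the same sign. The 7 called in KO alone were Snx12, Snx19, Snx30, Vps18, Vps37a, Vps37c and Vps52, and the 5 called in WT alone were Chmp7, Snx29, Vps35, Vps36 and Vps45. Whether any of these 12 differed between genotypes is the test of the difference of the KO effects, which none passed.

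Between Rinl-KO and WT cells few members passed, as did few of all tested genes. In effector cells 1 of 68 tested members passed (1.47%), lower in KO, and 3.16% of all tested genes did (1.45% higher, 1.72% lower). With 68 members, such low shares amount to very few genes, and the counts are not read as a trait of the members. In naive cells 0 of 68 passed by edgeR, DESeq2 or limma-voom, against 1.18% of all genes (0.679% higher, 0.497% lower), and 6 had an unadjusted p under 0.05 by edgeR (Chmp7, Snx12, Snx18, Vps18, Vps37a and Vps37c), which is 8.82% of members, against 11.9% of all tested genes. The effector comparison also had 6 at that level, namely Chmp1a, Chmp1b, Snx13, Vps25, Vps45 and Vps54, or 8.82% of members, against 16.1% of all tested genes. For the difference of the KO effect between effector and naive cells, 0 members passed by any of these tools, against 0.145% of all genes (0.0189% higher, 0.126% lower). At an unadjusted p under 0.05 there were 2 members, Snx12 and Snx13, or 2.94%, against 9.19% of all tested genes.

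The median absolute log2 fold change of the tested members was 0.047 in effector and 0.049 in naive cells, against 0.098 and 0.089 over all tested genes. The 2 sets were not matched for level: 15905 genes were tested, and 10994 genes reached a mean of 5 CPM. The part of count depth in this gap was not tested. The members' medians were also under their median SE, 0.058 in each cell type. The median width of the 95% interval to each side was 0.12 in both cell types and 0.17 for the difference. The interval lay within 0.5 of zero for 65 of 68 members in effector cells and for 65 of 68 in naive cells. The exceptions in each were Chmp4c, Snx21 and Snx8, the members with the fewest counts. The KO and WT libraries did not overlap for 8 of 68 members in effector cells (11.8%, against 17.9% of all tested genes) and for 12 in naive cells (17.6%, against 20.5%). Both shares rest on few members and were not tested against those of all genes.

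**Figure D4:**
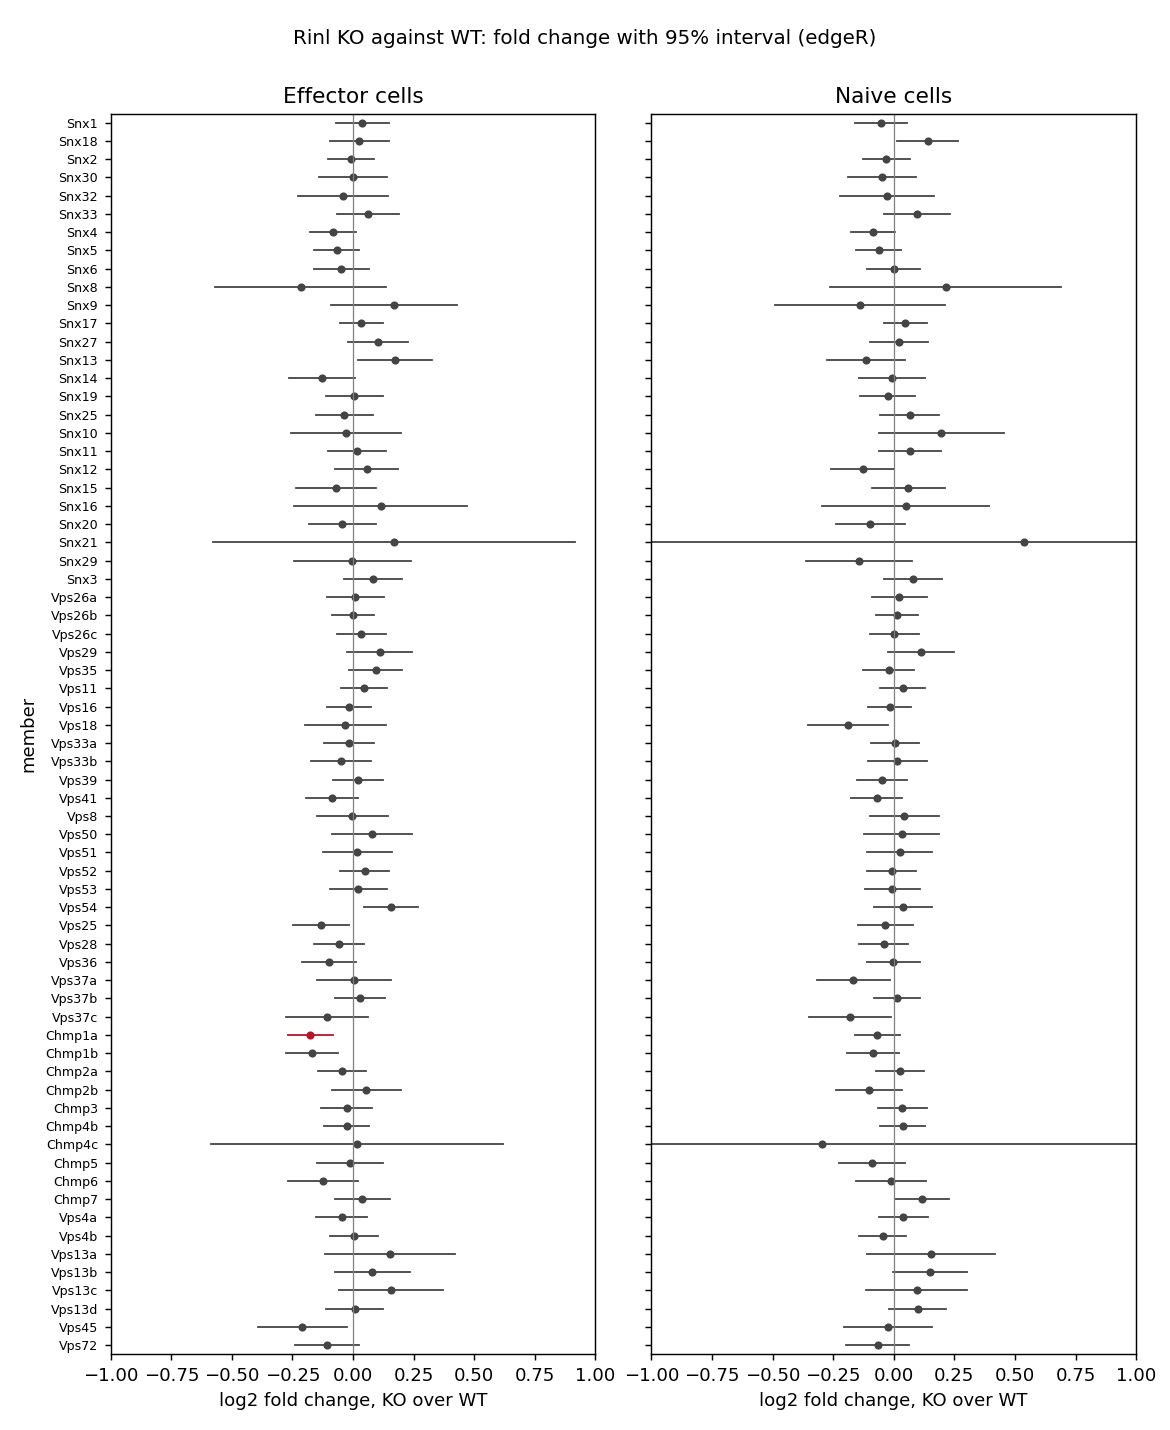
Log2 fold change of KO over WT (x axis) with its 95% interval for each of the 68 tested members (y axis) in effector cells (left) and naive cells (right), on an axis from -1 to 1, with red for an adjusted p of at most 0.05. Chmp1a in effector cells is the 1 red point, and the naive intervals of Snx21 and Chmp4c run past the axis.

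The member that passed was Chmp1a, an ESCRT-III subunit that recruits VPS4 (chromosome 8, 123204264 to 123212763, minus strand). It was at 59.9, 64 and 63.3 FPKM in KO effector libraries and 70.2, 72.7 and 68.4 FPKM in WT effector libraries. Naive Chmp1a levels were 54.1, 50.8 and 52 FPKM in KO and 53.3, 54.6 and 55.9 FPKM in WT libraries. In effector cells the KO libraries all lay below the WT libraries, while in naive cells they overlapped. The log2 fold change was -0.18 ± 0.045 in effector cells (95% interval -0.27 to -0.084, adjusted p = 0.030, edgeR) and -0.068 ± 0.045 in naive cells (adjusted p = 0.61). The difference between the effects, -0.11 ± 0.064 (KO minus WT in effector less that in naive cells), did not pass (adjusted p = 0.63, edgeR). The effector call rested on narrow margins: the adjusted p was 0.11 with only the effector libraries in the fit, 0.051 and 0.14 without the first or second WT effector library, and 0.10 and 0.052 without the first or second KO effector library. The gamma-delta T, NK and NKT cell markers were lower in the same comparison (4 of 6 passed, with the sums given above) and the summed B cell level was higher in every KO than in every WT effector library, and their part in the Chmp1a value was not tested.

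Values of its nearest relative and of Vps54 are given for comparison. Chmp1b was at 31.2, 31.9 and 30.7 FPKM in KO and 32.8, 36.1 and 36.4 FPKM in WT libraries in effector cells, where KO and WT libraries did not overlap, with a log2 fold change of -0.17 ± 0.051 that did not pass (adjusted p = 0.076, edgeR). Vps54 had a log2 fold change of 0.16 ± 0.054 (adjusted p = 0.13, edgeR) and its KO and WT effector libraries overlapped. Both passed when the first WT effector library was left out, at log2 fold changes of -0.22 for Chmp1b (adjusted p = 0.020) and 0.23 for Vps54 (adjusted p = 0.014). Vps13b passed in naive cells without the first WT naive library, at 0.25 (adjusted p = 0.0497), against 0.15 ± 0.072 with it (adjusted p = 0.44). Vps13b shares 250 of 21273 exon bases with Cox6c on the opposite strand, which had 11887 counts. The retromer and retriever genes had log2 fold changes between -0.0011 and 0.11 in effector cells and between -0.020 and 0.11 in naive cells. The HOPS, CORVET and CHEVI genes lay between -0.087 and 0.046 in effector cells and between -0.19 and 0.044 in naive cells.

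Another 47 genes that work with these complexes, such as ESCRT-0, the WASH and CCC complexes and cargo receptors, were read from a separate list. Of 45 tested, 15 were higher (33.3%) and 9 lower (20%) in KO effector than naive cells, against 31.6% and 26.8% of all tested genes. In WT 16 were higher (35.6%) and 9 lower (20%), against 30.2% and 25.9% of all tested genes. The WASH complex, which nucleates actin at endosomes with retromer, and the CCC complex, which acts with retriever, moved in both directions. Of 5 WASH genes, 1 was higher (Washc5) and 3 lower (Washc2, Washc3 and Washc4) in effector than naive cells of each genotype. Of 11 tested CCC genes, 3 were higher (Commd4, Commd7 and Commd10) and 3 lower (Ccdc22, Ccdc93 and Commd8) in KO, and in WT 4 were higher, with Commd1 added, and the same 3 were lower. Washc5 had log2 fold changes of 0.33 ± 0.050 in KO and 0.28 ± 0.052 in WT, and Commd10 0.48 ± 0.088 in KO and 0.35 ± 0.091 in WT. Vps35l, the scaffold of retriever, was higher by 0.12 ± 0.048 in KO and 0.20 ± 0.049 in WT on the log2 scale. The 4 largest falls among the partners in WT lay in the same complexes. Washc4 was at 11.8, 10.3 and 10.8 FPKM in KO effector, 11.8, 11 and 11.3 FPKM in WT effector, 16.8, 17.5 and 18.1 FPKM in KO naive and 20.7, 18 and 19.5 FPKM in WT naive libraries, and fell by a log2 fold change of -0.67 ± 0.058 in KO and -0.77 ± 0.059 in WT. Washc3 had log2 fold changes of -0.69 ± 0.078 in KO and -0.53 ± 0.080 in WT. Ccdc22, a scaffold of the CCC complex, was at 1.2, 0.998 and 1.49 FPKM in KO effector, 1.09, 0.754 and 0.952 FPKM in WT effector, 2.27, 2.09 and 2.08 FPKM in KO naive and 2.59, 1.7 and 2.11 FPKM in WT naive libraries, with log2 fold changes of -0.84 ± 0.18 in KO and -1.18 ± 0.20 in WT. Commd8, another CCC subunit, had -0.64 ± 0.059 in KO and -0.50 ± 0.060 in WT. These 4 genes were lower in effector cells of both genotypes.

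The partners with the largest rises in WT were Sorl1 and Mvb12b. Mvb12b, an accessory subunit of ESCRT-I, was at 10.1, 10.1 and 9.5 FPKM in KO effector, 11, 11.4 and 11.3 FPKM in WT effector, 5.81, 6.14 and 5.75 FPKM in KO naive and 6.0, 5.88 and 6.03 FPKM in WT naive libraries, a log2 fold change of 0.75 ± 0.056 in KO and 0.91 ± 0.057 in WT, while Vps37b of the same complex fell. Its relative Mvb12a was higher by 0.67 ± 0.066 in KO and 0.46 ± 0.068 in WT. Sorl1, a sorting receptor and retromer cargo, was at 23.4, 22.7 and 22 FPKM in KO effector libraries and 26.9, 24.5 and 26.7 FPKM in WT effector libraries. Naive Sorl1 levels were 10.6, 12.1 and 11.5 FPKM in KO and 11.8, 11 and 11.4 FPKM in WT libraries. It was higher in effector cells by log2 1.00 ± 0.051 in KO (adjusted p = 3.5e-14) and 1.19 ± 0.052 in WT (adjusted p = 1.8e-15, edgeR). Sorl1 was also the 1 partner called between genotypes in effector cells (2.22% of 45 tested, against 3.16% of all tested genes). Its KO effector libraries all lay below its WT effector libraries, with a log2 fold change of -0.20 ± 0.050 (adjusted p = 0.027, edgeR). In naive cells 0 of 45 partners passed by edgeR, against 1.18% of all tested genes. At an unadjusted p under 0.05 by edgeR there were 2 partners in naive cells (4.44%, against 11.9% of all tested genes). The naive value of Sorl1 was -0.0080 ± 0.052. At the same unadjusted level there were 7 partners in effector cells (15.6%, against 16.1%). For the difference of the KO effects there were 5 (11.1%, against 9.19%). The difference for Sorl1, -0.19 ± 0.073 (KO minus WT in effector less that in naive cells), did not pass (adjusted p = 0.38), and its effector call was lost at adjusted p = 0.081 and 0.12 without the first WT effector library or the third, 0.088 and 0.086 without the second KO effector library or the third, and 0.075 with only the effector libraries in the fit.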

How the data were processed

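RNA was extracted with an RNeasy kit and made into TruSeq Stranded mRNA libraries, per the labels' protocols. Per the submitters' processing notes the tools were STAR, Picard and DESeq2 1.30.0 and the build mm10 (GRCm38). Which program counted reads, and with what strand setting, was not stated in the sources. The authors deposited raw counts per gene for 12 libraries and FPKM per gene. The deposited FPKM equal the counts divided by 1 length per gene and 1 size factor per library, to within 2e-15 on the natural log scale among genes with at least 20 counts in every library. The table's columns name a group but not the labels' replicate number, so libraries were assigned by group alone.

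Counts were tested with edgeR 4.0.16 in R 4.3.3 (filterByExpr, TMM factors of 0.968 to 1.04, robust quasi-likelihood fit, 1 coefficient for each of the 4 groups), with Benjamini-Hochberg adjustment over all 15905 tested genes and a threshold of 0.05. The biological coefficient of variation was 5.21%. Standard errors are the log2 fold change over the square root of F, with 95% intervals. Intervals on counts cover counting error only. The same code was tested on simulated counts. Alternatives were DESeq2's size factors, DESeq2 1.42.0, limma-voom (limma 3.58.1), no filter, a mean of at least 5 CPM, only the groups compared, and each library left out.

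Members given in every library are those called in KO against WT, the 10 largest rises and 10 largest falls called for effector against naive cells in WT with at least 1 FPKM, and the highest in each role group. Others complete a role group. From the partner list, those called in KO against WT and the 6 largest changes are named. The members, role groups, partners and marker lists were chosen with earlier results of these data known. A further marker used in the sort is not reported here.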

Additional observations from a re-analysis of the deposited data

How the results depend on the processing

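The numbers of members called between effector and naive cells stayed close in WT, where 30 higher and 10 lower became 28 to 31 and 8 to 11. In KO, 34 higher and 8 lower became 26 to 34 and 6 to 10. The KO rises dropped as far as 26 with 1 library left out, and were 32 to 34 in the other alternatives. Of 1042 such values for the named members, 15 lost the call, 2 gained it and 1025 had no change of call. Of the values called in the main fit, 0 changed sign, and the sign of values not called there was not followed. Between KO and WT, the 1 lower member in effector cells became 0 with only the groups compared, and 0 to 1 with 1 library left out. The 0 higher members became 0 to 1 in effector and 0 to 1 in naive cells with 1 library left out, through Vps54 without the first WT effector library and Vps13b without the first WT naive library. The difference of the KO effects gave 0 members throughout. The count of members with at least 1 FPKM, 66, was 66 at 0.5 FPKM and 64 at 2 FPKM. Over all genes, the 230 higher and 273 lower in KO effector cells became 96 and 134 with only the groups compared, 515 and 444 with no filter, 93 and 177 without the second WT effector library, 112 and 155 without the third, and 74 and 120 without the second KO effector library. In naive cells 108 higher and 79 lower became 287 and 241 with only the groups compared, 338 and 163 with no filter, 165 and 87 in DESeq2, 40 and 32 without the second WT naive library, 36 and 30 without the second KO naive library, and 53 and 31 without the third. For the difference, 3 higher and 20 lower became 84 and 193 with no filter, 14 and 47 in DESeq2, 0 and 9 in limma-voom, and 26 and 59 without the first WT effector library. The cause of these shifts was not tested. No paired analysis was possible because the columns carry the group but not the replicate numbers of the labels. Depth limits Chmp4c, Snx21 and the 5 untested members most.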
